A study of Saccharomyces cerevisiae with 14 samples.

Results

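TRP1, ADE2, LYS2, ARG4 and HO are 5 of the marker genes of the parents of the diploid yeast WT14, and their DNA copy number was followed here on a tiling array. TRP1 encodes an enzyme of tryptophan synthesis, ADE2 an enzyme of purine synthesis whose loss turns colonies red, LYS2 the aminoadipate reductase of lysine synthesis, ARG4 the argininosuccinate lyase of arginine synthesis, and HO the endonuclease that starts mating-type switching in yeast. Such auxotrophic markers are used because a cell that lacks the working allele cannot grow without the nutrient, so a heterozygous diploid shows by its growth or color when the working allele is lost. Array comparative genomic hybridization (aCGH) estimates how many copies of a stretch are present, and here it was not used to tell apart alleles that differ by a point mutation. A probe belonged to a gene when it lay within the gene's interval or reached at most 60 bases beyond it. By this rule 56 of the 59133 nuclear probes belonged to the 5 genes, 6 to TRP1, 10 to ADE2, 22 to LYS2, 8 to ARG4 and 10 to HO, and 239 further probes lay in the 5 kb flanks on either side.

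Genomic DNA of 13 TAQed strains and of WT14 was labeled with Cy5 and hybridized against Cy3-labeled WT14 DNA, with 1 array per strain, 1 array of WT14 against itself and no dye swap. WT14 is the fused diploid (MATa/a) of YPH499, an S288C-derived haploid, and S799, an SK1-derived haploid. The study reports small sequence differences between these parents along the chromosomes. Their effect on the ratios of single probes was not tested here, so a ratio need not reflect copy number alone. TAQed strains are single isolates of WT14 cells in which the restriction enzyme TaqI was expressed from a copper-inducible vector and activated for 30 min at 42 °C. They had been chosen for small colonies and altered cell morphology, so they do not stand for all surviving cells. WT14 and every TAQed strain descend from the same marker genotype. With the YPH499 allele written first and the S799 allele second, it was trp1-Δ63/TRP1, ade2-101/ADE2, lys2-801/lys2 and ARG4/arg4-bgl. At HO it was ho::LYS2 on the S799 side, with no HO allele listed for YPH499. The other loci listed were, in the same order, ura3-52/ura3, his3-Δ200/HIS3 and CYH2/cyh2-z. For LEU2 the sources disagree, since WT14 is listed as leu2Δ/LEU2 while YPH499 is listed with leu2-Δ1 and S799 with leu2Δ. The labels repeat the heat treatment for WT14, which the study describes as the control without TaqI activation. With 1 array per strain no single value has a replicate, so the spread over the other arrays is given in its place.

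The array of strain 81 was dim, with a median Cy5 signal of 25 against 157 to 284.5 on the other arrays, and 84.6% of its Cy5 spots were well above background. On that array 4 of the 8 ARG4 probes, 3 of the 10 ADE2 probes, 2 of the 22 LYS2 probes and 1 of the 10 HO probes were well above background in neither channel. Strain 106 had the largest difference between chromosome ends and the rest, a value that includes any copy changes near the ends. Its probes within 50 kb of a chromosome end differed from the rest by a median of -0.30 on the log2 scale, against values from -0.27 in strain 119 to 0.02 in WT14 on the other arrays.

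Values below are log2 ratios of strain over WT14 with each array centered on its median, and a gene's ratio is the median over its probes. In a diploid, going from 2 to 3 copies gives 0.58 by arithmetic and from 2 to 1 gives -1. From 1 to 2 copies gives 1.00, from 3 to 4 gives 0.42 and from 3 to 2 gives -0.58. Of the 65 combinations of gene and TAQed strain, 6 were past 0.3 in either direction (9.23%), and the same threshold was passed by 8.4% of the values of all 2 kb windows over the 13 strains. Higher values made up 4 of the 65 (6.15%) against 4.52% of window values, and lower values 2 of the 65 (3.08%) against 3.88%, so these shares lay near those of the whole genome. Within single strains, windows above 0.3 made up 8.74% in strain 81, 6.14% in strain 101 and 16.1% in strain 106, and windows below -0.3 made up 9.95% in strain 106 and 8.21% in strain 119. On the WT14 array 0 of the 5 genes passed 0.3, against 1.08% of its windows. The 6 combinations were TRP1, LYS2 and HO in strain 106, HO in strain 101, ADE2 in strain 81 and ARG4 in strain 119. The other 9 strains had none, and without strain 106 the count fell to 3. LYS2 in strain 106 at 0.35 was the value nearest to the threshold from above, and TRP1 in strain 119 at 0.24 the nearest from below. In 5 of the 6 combinations the flanks were past 0.3 as well, the exception being LYS2 in strain 106, and in 0 of the 65 did a gene differ from its flanks by more than 0.3. That last count was 4 under normexp background correction, LYS2 in strain 106 at 0.38 among them, and 1 with the mean over probes, HO in strain 106 at -0.64.

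**Figure D1:**
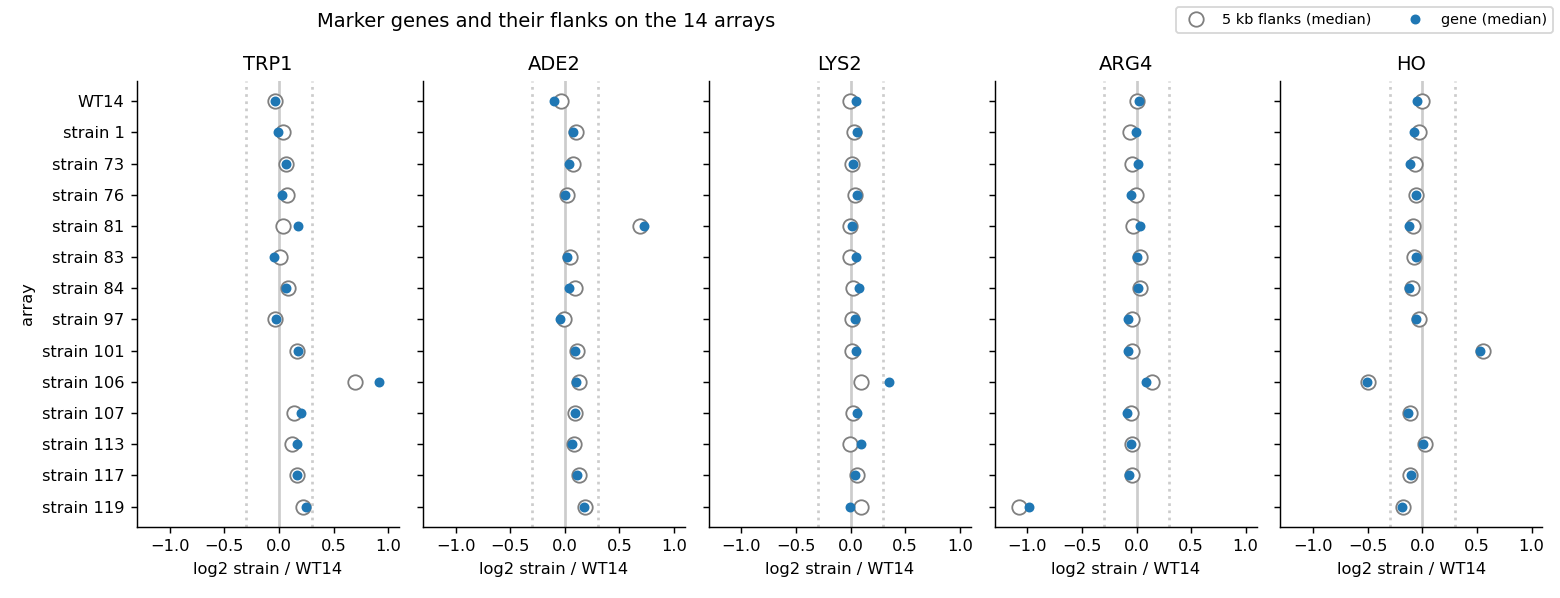
Median log2 ratio of strain over WT14 (horizontal axis) for each of the 5 genes (filled points) and its 5 kb flanks (open points) on the 14 arrays, with dotted lines at 0.3 in each direction. Gene and flanks lie together on most arrays, and TRP1 and LYS2 in strain 106 lie 0.21 and 0.25 above their flanks.

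TRP1 lies on chromosome IV from 461840 to 462520 in build sacCer2, between SOK1 and GAL3 in the R64 annotation. Over the 13 TAQed strains its ratio ran from -0.04 to 0.91 with a median of 0.16, and WT14 gave -0.04. Strain 106 had the highest value, 0.91 (SD over 6 probes 0.25), and the other 13 arrays lay between -0.04 and 0.24 without reaching it. The left flank of strain 106 was at 0.61 and the right flank at 0.77, so TRP1 exceeded its flanks by 0.21, while on the other arrays this difference ran from -0.05 to 0.14. A run of windows past 0.3, in which at most 2 windows in a row missed that value, covered 1144 kb of chromosome IV around TRP1 in this strain, with a median of 0.65.

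The excess over the flanks in strain 106 came from the left part of the gene, a division made after the values were seen and given without a test. The first 3 probes, at positions 461834 to 462276, were at 1.05, 1.34 and 1.05. The last 3 probes lie on top of each other at positions 462445 to 462505 and were at 0.70, 0.74 and 0.77. The nearest probe of the left flank, from 461675 to 461734, was at 0.68, and the nearest of the right flank, from 462642 to 462700, at 0.78. The median of the first 3 probes was 0.35 above the flanks in strain 106, and on the other arrays it was between -0.09 and 0.16, the highest of these on the dim array of strain 81. The last 3 probes were 0.04 above the flanks. As background, trp1-Δ63 is a partial deletion that takes the start of the gene and leaves its end, so that WT14 holds 1 copy of the deleted stretch and 2 of the rest. The first 3 probes lay nearest to the 1.00 that going from 1 to 2 copies gives by arithmetic. The last 3 probes and the flanks, at 0.61 and 0.77, lay between that value and the 0.58 of going from 2 to 3. The last 3 probes and the right flank were only slightly nearer to 0.58. Whether the deletion accounts for the difference within the gene was not tested. The exact ends of the deletion are not given in the sources used here. With only probes wholly inside the gene, which leaves out the probe from 461834 to 461891, TRP1 was at 0.77 and 0.07 above its flanks, since the median then falls among the last 3 probes.

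HO lies on chromosome IV from 46270 to 48035, near the left end, between SSB1 and GCS1 in the R64 annotation. The ratio of HO over the TAQed strains ran from -0.51 to 0.53 with a median of -0.11, and WT14 gave -0.05. It was the gene that moved in both directions. Strain 101 was highest with 0.53 (SD over 10 probes 0.11), strain 106 was lowest with -0.51, and the other 12 arrays, from -0.19 to 0.01, overlapped neither. The flanks of HO followed it closely. They were at 0.56 on the left and 0.54 on the right in strain 101, and at -0.44 and -0.52 in strain 106, and over all 14 arrays HO differed from its flanks by -0.05 to 0.02. In strain 101 the windows past 0.3 covered 430 kb with a median of 0.72, which ended to the left of TRP1, where this strain was at 0.18. In strain 106 windows below -0.3 covered 128 kb with a median of -0.40, and TRP1 on the same chromosome was higher than WT14. If WT14 holds 2 copies of HO, strain 101 lay near the 0.58 of going from 2 to 3 copies. HO and its flanks in strain 106 fell well short of the -1 of going from 2 to 1, and the reason was not tested. The lower level of chromosome ends in strain 106, given above, moves in the same direction as HO, and its part in the value was not tested. HO lies 46.3 kb from the left end, so its probes are among those of the chromosome ends. The shared direction is therefore partly built in.

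A probe of HO from 47684 to 47743 had almost no Cy5 signal in strain 106. Its processed Cy5 signal was 5.88, not well above background, against 519 in WT14 and 913 in strain 101, while its Cy3 signal was 579, against 578 and 516. The measured log2 ratio was -6.59. Taking the lowest Cy5 signal that was well above background on this array, 27.5, the probe was at least 20.6-fold lower in strain 106 than in its reference. The other 9 HO probes were between -1.15 and -0.27 in this strain. The second lowest, from 46780 to 46839, was at -1.15 with Cy5 and Cy3 signals of 275 and 621, both well above background. The same probe from 47684 to 47743 was the highest HO probe in strain 101, at 0.81, where the 10 probes ran from 0.45 to 0.81. This probe is named because it was the lowest of its gene in strain 106 and the highest in strain 101, and its neighbors in strain 106, from 47468 to 47527 at -0.59 and from 47856 to 47915 at -0.27, did not share its value. Of the 59 probes of HO and its flanks, 6 lay more than 0.4 below their common median of -0.50 in strain 106. They were this probe and others from -1.19 to -0.96. In strain 101, 4 of these 6 lay above the median of the same 59 probes. The probe from 47684 to 47743, named for its high value in that strain, is among the 4. A median leaves as many probes above it as below it. The count of 4 of 6 therefore does not set these probes apart from the rest in strain 101. The cause of the scatter in strain 106 was not tested.

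**Figure D2:**
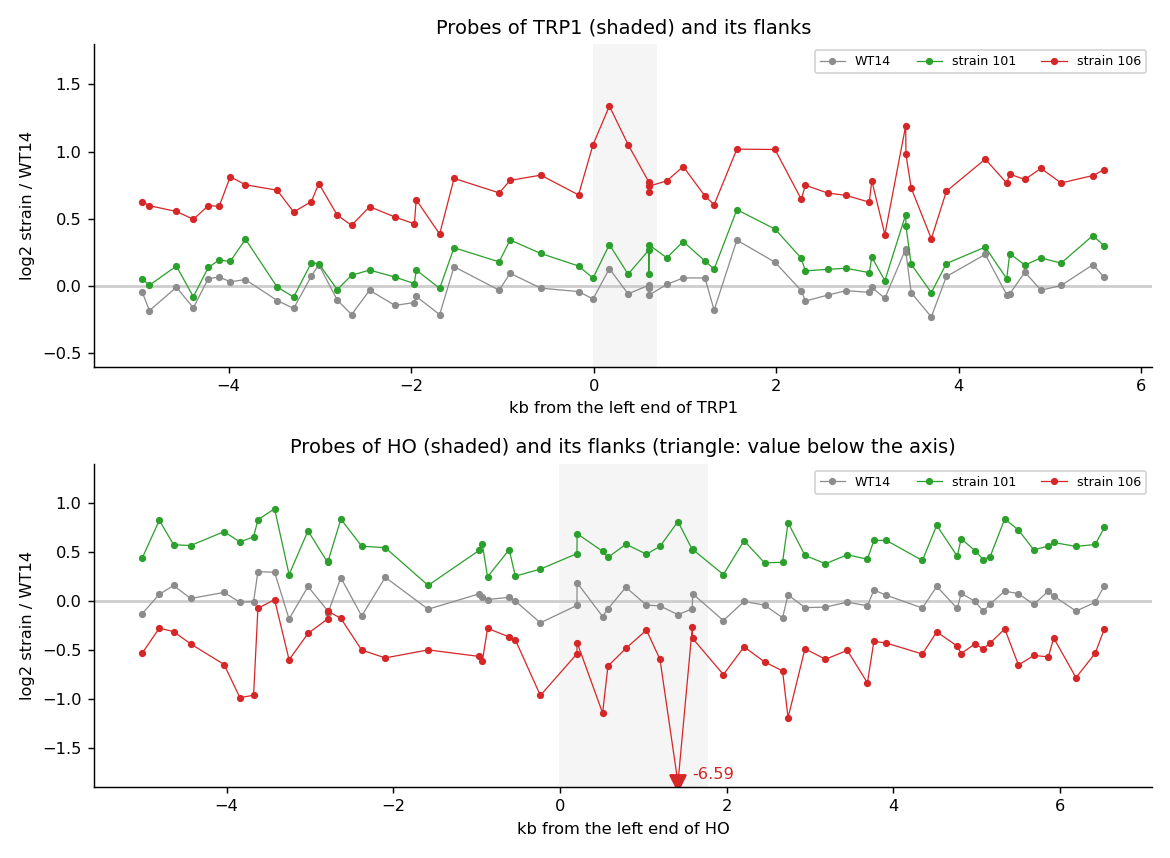
Log2 ratio of each probe (points) against its distance in kb from the left end of TRP1 (top) and HO (bottom), both shaded, for WT14, strain 101 and strain 106. The first 3 TRP1 probes of strain 106 lie at 1.05 to 1.34 above flanks near 0.70, and the triangle marks the HO probe at -6.59, below the axis.

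LYS2 lies on chromosome II from 469700 to 473930, between RAD16 and TKL2 in the R64 annotation, and its sequence is also present at the HO locus of the S799 chromosome. If every allele keeps the probed sequence and the insert holds the whole gene, WT14 holds 3 copies, so that probes of LYS2 report on chromosome II and on the insert at HO together. Over the TAQed strains LYS2 ran from 0.00 to 0.35 with a median of 0.05, and WT14 gave 0.05. Strain 106 was highest with 0.35 (SD over 22 probes 0.14), and the other 13 arrays lay between 0.00 and 0.09. The flanks of LYS2 in strain 106 were at 0.10 on the left and 0.07 on the right. LYS2 exceeded them by 0.25, while the difference on the other arrays ran from -0.10 to 0.10. The Cy5 level of LYS2 in strain 106 was 0.22 above the median of the 14 arrays and the Cy3 level 0.00 from it.

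The rise in strain 106 was present at every probe of the gene and was lower in the flanks, though single probes of gene and flanks overlapped. After the ratio of the WT14 array was subtracted probe by probe, the 22 LYS2 probes of strain 106 lay between 0.17 and 0.45, all above the flank median of 0.10, and 0 of the 42 flank probes reached the gene's median of 0.29. The highest flank probe, from 465136 to 465195, was at 0.28, above the lowest LYS2 probes. Strain 106 had the highest value of the 13 TAQed strains at 21 of the 22 LYS2 probes and at 9 of the 42 flank probes, against 14.2% of all probes. Since strain 106 was singled out by the median of these 22 probes, the first count uses the same values and is no separate support. The remaining LYS2 probe, from 470825 to 470883, was highest in strain 81. There it was at 1.50 before subtraction and not well above background in either channel. In strain 106 the last LYS2 probe, from 473887 to 473946, was at 0.17 with the WT14 ratio subtracted. The next probe outside, from 474328 to 474387, was at 0.01. Without subtraction these 2 probes were at 0.19 and 0.14. At the left edge the subtracted values were 0.28 for the first LYS2 probe and 0.22 for the nearest flank probe. On chromosome II of this strain 6 of 400 windows were above 0.3, and 2 of these were the windows of LYS2. The value of 0.29 to 0.35 lay below the 0.42 of going from 3 to 4 copies. After loess normalization LYS2 was at 0.26 in strain 106 and 0.16 above its flanks, and no longer past 0.3.

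LYS2 and HO were then set side by side in the strains in which HO changed. In strain 101, where HO and its flanks were at 0.53 and 0.56, LYS2 was at 0.05, 0.04 above its flanks, within the range of the arrays without a change. By arithmetic, an added copy of the ho::LYS2 allele would bring LYS2 from 3 to 4 copies, and an added copy of the other allele would leave it at 3. In strain 106, where HO was at -0.51, LYS2 was at 0.35. Which alleles were gained or lost was not tested, and the count of 3 copies in WT14 rests on the condition given above. With the WT14 ratio subtracted, LYS2 lay below its flanks in 12 of the 13 strains, strain 106 being the exception, a pattern noted after the values were seen. Without subtraction LYS2 lay below its flanks only in strains 117 and 119, with differences of -0.02 and -0.10. On the WT14 array LYS2 was itself 0.05 above its flanks. The count of 12 thus depends on that 1 array, which enters every subtracted difference. Most of the subtracted differences were small, from -0.02 in strain 107 to -0.10 in strain 117 and -0.16 in strain 119. In strain 119 LYS2 was at -0.06 and its flanks at 0.11, and in both strain 117 and strain 119 0 of the 22 LYS2 probes were above the flank median. HO in strain 119 was at -0.19 and its flanks at -0.17, on an array whose chromosome ends, HO among them, differed from the rest by -0.27.

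**Figure D3:**
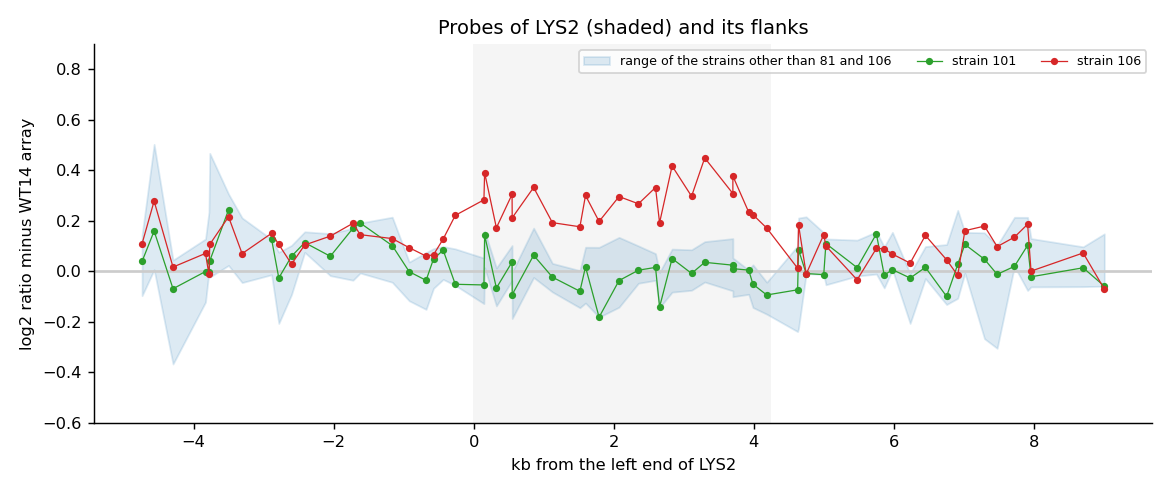
Log2 ratio of each probe minus that of the WT14 array against its distance in kb from the left end of LYS2 (shaded), for strains 101 and 106, with the range of the strains other than 81 and 106 as a band. The LYS2 probes of strain 106 lie at 0.17 to 0.45, and those of strain 101 center on 0.00.

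ADE2 lies on chromosome XV from 564470 to 566200, between RGA1 and AFI1 in the R64 annotation. Its ratio over the TAQed strains ran from -0.04 to 0.73 with a median of 0.07, and WT14 gave -0.10, from 9 of the 10 probes since 1 had an outlier flag. Strain 81 was highest with 0.73 (SD over 10 probes 0.23), and no other array went beyond 0.18. The flanks of ADE2 in strain 81 were at 0.70 and 0.69, so ADE2 differed from them by 0.04, and windows past 0.3 covered 668 kb with a median of 0.65. Single ADE2 probes of strain 81 ran from 0.25, at 565678 to 565736, to 1.00, at 564547 to 564606, and both of these probes were not well above background in either channel. With only the 5 probes well above background in both channels on this array, ADE2 was at 0.75. Under normexp background correction with an offset of 50 it fell to 0.07 and its flanks to 0.21, on an array whose median Cy5 and Cy3 signals, 25 and 24, are below that offset.

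ARG4 lies on chromosome VIII from 140000 to 141405, between YSC83 and DED81 in the R64 annotation. Its ratio over the TAQed strains ran from -0.99 to 0.09 with a median of -0.05, and WT14 gave 0.03. Strain 119 was lowest with -0.99 (SD over 8 probes 0.26), and the other 13 arrays lay between -0.08 and 0.09. The flanks of ARG4 in strain 119 were at -1.05 and -1.13, and 266 of the 272 windows of chromosome VIII were below -0.3, with a chromosome median of -1.04. The value was close to that of going from 2 to 1 copies, but it was -0.65 under normexp correction, with flanks at -0.66. Whether ARG4 or arg4-bgl remained was not examined here. The lowest probes in strain 119 were the first 2 of the gene, at 140067 to 140126 and 140103 to 140162, with -1.55 and -1.45, and the other 6 ran from -1.10 to -0.88. These first 2 probes overlap each other. Their median minus that of the flanks was -0.43 in strain 119, -0.30 in strain 107, -0.25 in strain 106 and -0.04 in WT14, a comparison made after the values were seen. In strain 107 the 2 probes were apart, at -0.59 and -0.11. The strains not yet named here, without strain 81, ran from -0.19 in strain 113 to 0.03 in strain 73. In strain 81 both probes were not well above background in either channel, so their ratios there are not measurements of the gene.

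**Figure D4:**
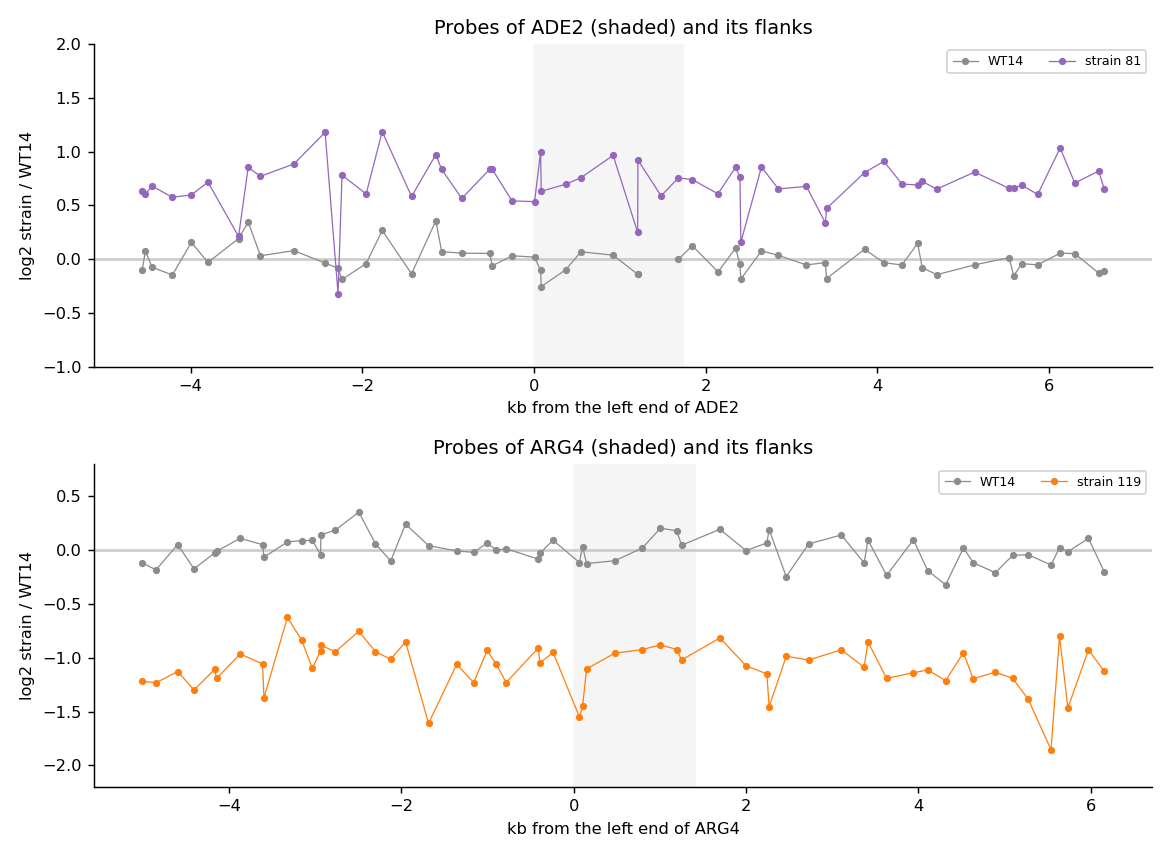
Log2 ratio of each probe (points) against its distance in kb from the left end of ADE2 (top, WT14 and strain 81) and ARG4 (bottom, WT14 and strain 119), with the gene shaded. ADE2 at 0.73 and ARG4 at -0.99 lie level with their flanks.

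In each of the 6 combinations the Cy5 channel, which holds the strain's DNA, carried most of the difference. Relative to the median of the 14 arrays, the centered Cy5 level was higher by 0.60 for TRP1 and by 0.22 for LYS2 in strain 106, by 0.50 for HO in strain 101 and by 0.45 for ADE2 in strain 81. It fell by 0.83 for ARG4 in strain 119 and by 0.41 for HO in strain 106. The Cy3 level of the common reference moved less. For LYS2 it was at 0.00, and for the others it moved in the opposite direction, for example by -0.23 for ADE2 in strain 81, by -0.18 for TRP1 in strain 106 and by 0.13 for ARG4 in strain 119. On the dim array of strain 81 both channels of TRP1 were shifted together, by 0.59 in Cy5 and 0.60 in Cy3, and the log2 ratio of TRP1 there was 0.18.

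**Figure D5:**
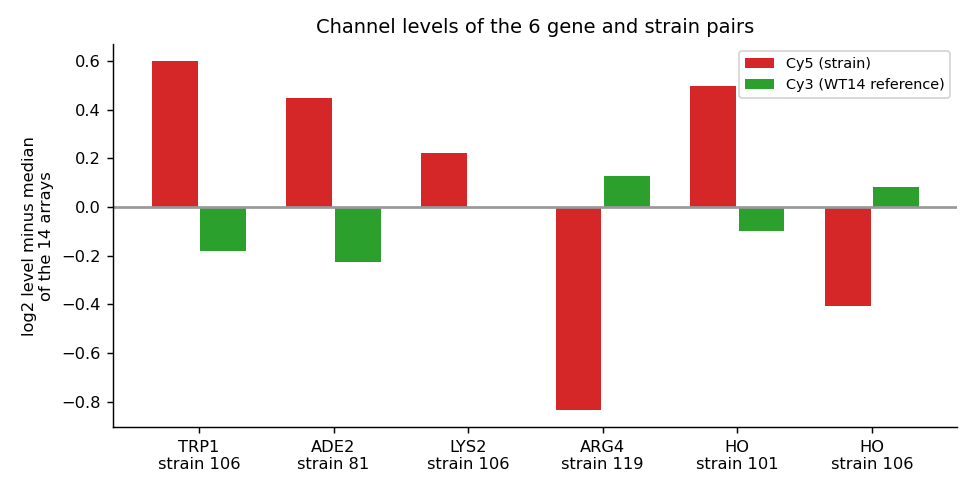
Median centered log2 level of the gene's probes in Cy5 (strain) and Cy3 (WT14 reference), each minus the median of the 14 arrays, for the 6 gene and strain pairs. The bars start at 0, and the Cy5 bar is the longer of each pair, from -0.83 for ARG4 in strain 119 to 0.60 for TRP1 in strain 106.

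A shift common to the TAQed strains was tested against the WT14 array. The difference between gene and flanks was 0.03 ± 0.08 (SD, n = 13) for TRP1 in the TAQed strains against -0.01 in WT14 (exact two-sided permutation p = 0.643). It was 0.04 ± 0.08 against 0.05 for LYS2 (exact p = 0.643) and 0.00 ± 0.05 against 0.03 for ARG4 (exact p = 0.857). For ADE2 it was -0.02 ± 0.02 against -0.07 (exact p = 0.143) and for HO -0.02 ± 0.02 against -0.05 (exact p = 0.214). ADE2 and HO were above WT14 in 13 of 13 strains, as were 3.54% of 2 kb windows when set against the 4 windows around them, but for both genes the direction turned under normexp correction. With 13 arrays against 1 the smallest p that this test can give is 0.0714, so the 5 comparisons could not pass 0.05. In the limma fit, 0 of 59064 probes (0%) had a Benjamini-Hochberg adjusted p under 0.05, and before adjustment 499 probes (0.845%) were under 0.05. Among the 55 gene probes in that fit, which leaves out the ADE2 probe flagged on the WT14 array, both counts were 0, and their median difference was 0.01 against -0.02 over all probes.

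The slides differed in level at some of the genes. Among strains without a change at the gene, ARG4 had a median of 0.00 over 5 strains on the slide of WT14 and of -0.07 over 7 strains on the other slide, and TRP1 had medians of 0.03 and 0.16. Their ranges overlapped for all 5 genes, and each of these shifts was smaller than the 6 differences described.

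The windows on other chromosomes whose ratio ran most like that of a gene over the 14 arrays are given as a description, since the arrays are shared and single strains weigh heavily. For HO the nearest was a 2 kb window on chromosome VII from 1068001 to 1070000 (Pearson's r = 0.956), and for LYS2 a window on chromosome XIV from 674001 to 676000 (r = 0.936). For ADE2 it lay on chromosome XVI from 714001 to 716000 (r = 0.920), for ARG4 on chromosome I from 224001 to 226000 (r = 0.884) and for TRP1 on chromosome XIV from 652001 to 654000 (r = 0.879). Strain 106 was the highest TAQed strain in the windows of TRP1 and LYS2, with 0.45 and 0.40.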

How the data were processed

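The authors hybridized Cy5-labeled strain DNA and Cy3-labeled WT14 DNA to a custom Agilent tiling array (coordinates in sacCer2) and deposited spot tables of Agilent Feature Extraction 11.0.1.1. The processed intensity of each channel was deposited background-subtracted and dye-normalized. A deposited matrix of log10 ratios for 47691 spots served as an alternative.

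Log2 ratios of Cy5 over Cy3 were computed without loess, after removal of spots with outlier flags. Repeated spots of a probe entered as their mean, and the array's median was subtracted. Flanks held the probes within 5 kb of a gene's 60-base margin, and windows of 2 kb needed at least 3 probes. Groups came from the labels. Gene minus flanks was compared by an exact permutation test, and single probes with limma 3.58.1 (lmFit, eBayes, Benjamini-Hochberg adjustment), a fit tested on simulated data. With 1 WT14 array, its spread is assumed to be that of the TAQed arrays. The genes, lists and threshold were chosen with earlier results of these data known. Gene and strain pairs were named when the gene, its flanks or their difference passed 0.3, with the lowest or highest probe. The R64 annotation gave only gene names and neighbors. Pathway gene lists could not be placed in sacCer2 and were not analysed here. Alternatives covered background correction, loess, the deposited matrix, centering, probe filters, flank width, thresholds and left-out strains. Signal over background limits precision on the array of strain 81.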

Additional observations from a re-analysis of the deposited data

How the results depend on the processing

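The direction of the 6 gene and strain combinations did not turn under any alternative run, and the number past 0.3 was 5 or 6 except that it was 3 without strain 106, an alternative chosen after the data were seen. With thresholds of 0.2 and 0.4 in place of 0.3 it was 8 and 5. Under normexp correction the count was also 6, but ADE2 in strain 81 (0.0732) was replaced by LYS2 in strain 1 (0.31), and LYS2 in strain 106 was at 0.49 and ARG4 in strain 119 at -0.65. LYS2 in strain 106 was at 0.26 with loess and 0.29 with the WT14 ratio subtracted, so it no longer passed 0.3. Subtraction gave -1.08 for ARG4 in strain 119 and -0.57 for HO in strain 106, and the mean over probes gave -1.10 and -1.14, the latter set by the HO probe without Cy5 signal. TRP1 in strain 106 was at 0.77 with the deposited matrix and with only probes inside the gene.

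Gene minus flanks moved more often, since most of these differences were small. Under normexp it was 0.27 for TRP1, 0.38 for LYS2 and -0.15 for HO in strain 106, -0.13 for ADE2 in strain 81, 0.0053 for ARG4 in strain 119, and -0.0101 for HO and 0.18 for LYS2 in strain 101. After loess it was 0.16 for LYS2 and -0.10 for HO in strain 106 and -0.0229 for LYS2 in strain 101. With the WT14 ratio subtracted it was 0.0648 for ADE2 in strain 81, 0.19 for LYS2 and -0.0957 for HO in strain 106, -0.0079 for ARG4 in strain 119, and -0.0079 for HO and -0.0217 for LYS2 in strain 101. The mean over probes gave -0.0122 for ARG4 in strain 119, 0.0148 for HO in strain 101 and -0.64 for HO in strain 106. Flanks of 2 kb gave 0.0991 for HO in strain 101 and 0.0548 in strain 106, and flanks of 10 kb gave 0.0182 for ADE2 in strain 81 and -0.0518 for HO in strain 106. The deposited matrix gave 0.0819 for TRP1 in strain 106 and 0.0165 for HO in strain 101. Only probes inside the gene gave 0.0749 for TRP1 in strain 106 and 0.0071 for ADE2 in strain 81. Only probes well above background on the array, an alternative chosen after the data were seen, gave 0.0612 for ADE2 in strain 81 and 0.0155 for HO in strain 106.

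The difference between TAQed strains and WT14 turned its sign for ADE2 (0.0481) to -0.0171 under normexp, -0.0056 after loess and -0.0193 with the matrix. For ARG4 (-0.0283) it turned to 0.0430 under normexp and 0.0289 after loess, and for HO (0.0260) to -0.0205 under normexp, -0.0344 with the mean over probes and -0.0140 with the WT14 ratio subtracted. The cause of these changes was not tested. The limma fit passed 0 probes at an adjusted p of 0.05 under each alternative, with 339 to 971 probes at an unadjusted p under 0.05, the highest without strain 81. No paired analysis was possible because the labels number strains and not replicates, and there was 1 array per strain. Precision is limited by the number of arrays and, for strain 81, by signal close to background.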
